A study of Mus musculus with 8 samples.

Results

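The genes described here are the splicing and heterogeneous nuclear ribonucleoprotein (hnRNP) genes of splenic CD4 T cells: every gene in the array annotation whose symbol starts with Hnrnp, Srsf, Sf3a, Sf3b, Prpf or Snrp. They numbered 54 of the 12393 genes measured, and 138 probe sets (groups of short probes for a transcript region) named them alone. Each gene was represented by the probe set with the highest mean over the arrays, and the other 84 probe sets are given beside it. Another 4 genes of these families (Hnrnpa3, Snrpa, Snrpd1 and Snrpd2) had only probe sets that also name other genes and were not analysed here, and Srsf7 was not analysed here either.

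RNA came from splenic CD4 T cells, sorted by FACS, of female mice aged 8 to 12 weeks. Mice without Ahr, the gene of the aryl hydrocarbon receptor, on a line backcrossed to C57BL/6 (KO), and C57BL/6 mice (WT) were each injected intraperitoneally with 10 µg/kg TCDD, the prototypical ligand of that receptor, or with its solvent DMSO, both in corn oil, and killed after 24 h. The 4 groups were KO TCDD, KO DMSO, WT TCDD and WT DMSO, with 2 arrays each, every array holding the RNA of 4 pooled animals. The mice, not only their T cells, lacked the gene, and pooling hides the spread between animals, so p-values measure the spread between arrays. The first WT TCDD array is described as knockout in 1 label but as WT in its title, source and strain, and was analysed as WT.

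Splicing removes introns from precursor RNA. The spliceosome is built from small nuclear ribonucleoproteins (snRNPs): the U1 particle recognises the start of the intron, the U2 particle the branch site, and the U4, U5 and U6 particles join before the catalytic core forms. All but U6 carry a ring of Sm proteins. SR proteins bind exons and recruit the machinery, while hnRNPs coat nascent RNA and often oppose them, so that their balance sets which exons are kept. In T cells, alternative splicing accompanies activation, and the surface phosphatase CD45 (gene Ptprc) is the classical example, its variable exons being skipped under the control of Hnrnpll and Hnrnpl.

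These RNAs were among the brighter ones on the arrays: 53 of the 54 genes had a mean log2 level above the median over all probe sets, 6.13, and Prpf40b lay below it. Levels are log2 values from robust multi-array averaging, so a difference of 1 log2 unit is a doubling, and levels of different probe sets are not compared with each other. T cell markers were present (Cd4 at 8.16 ± 0.09 in KO against 8.36 ± 0.28 in WT, SD, n = 4 each; the mean of the T cell list 9.65 to 9.85 in KO and 9.46 to 9.92 in WT), and 0 of 7 measured T cell markers were called between genotypes by limma (1 at an unadjusted p under 0.05). Myeloid and dendritic cell markers were higher in KO, with 6 of 10 called and a list mean of 7.37 to 8.00 in KO against 6.39 to 6.53 in WT. Of NK and CD8 T cell markers 1 of 7 was called higher (list mean 6.63 to 7.21 in KO and 6.40 to 6.78 in WT), and of B and plasma cell (6.27 to 6.95 in KO, 5.82 to 6.53 in WT) and red cell markers (5.71 to 6.03 in KO, 5.48 to 5.85 in WT) 0 of 6 and 0 of 2 were called (1 of each at an unadjusted p under 0.05). No marker is at 0 on such a scale. The actin difference between 3′ and 5′ control probe sets, a measure of RNA integrity, was 3.48 to 3.82 in KO arrays and 2.90 to 4.56 in WT arrays, with both WT arrays numbered 2 below the others, at 2.90 and 3.30. Of the 2 probe sets for Ahr itself, neither was called: they differed by 0.53 (adjusted p = 0.0658, limma) and 0.04 (adjusted p = 0.906) log2 units, KO minus WT, and the sources used here do not say whether they match the deleted stretch.

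Promoters are shown for 3 genes because the receptor is a DNA-binding factor: Snrpe and Snrpb2, each called lower in KO on 1 probe set, and Srsf3, which had the lowest difference of the 54 genes without being called. RefSeq (build GRCm38.p6) gave promoters for 49 of the 54 genes, and none for Hnrnpul2, which was called higher. The letters searched were GCGTG, the core of the receptor's response element, on both strands (CACGC on the other), in the 300 bases from 250 before to 50 after each gene start. Below are the 250 bases before the start, 5′ to 3′ on the gene's strand, with a match in capitals, at chr1:133610281-133610530 (minus strand, Snrpe), chr2:143062819-143063068 (plus strand, Snrpb2) and chr17:29032410-29032659 (plus strand, Srsf3).
Snrpe: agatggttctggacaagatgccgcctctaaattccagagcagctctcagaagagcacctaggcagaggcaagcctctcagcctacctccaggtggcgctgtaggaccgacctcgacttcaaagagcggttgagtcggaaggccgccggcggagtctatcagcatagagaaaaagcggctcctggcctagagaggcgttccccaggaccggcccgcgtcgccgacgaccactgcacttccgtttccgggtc
Snrpb2: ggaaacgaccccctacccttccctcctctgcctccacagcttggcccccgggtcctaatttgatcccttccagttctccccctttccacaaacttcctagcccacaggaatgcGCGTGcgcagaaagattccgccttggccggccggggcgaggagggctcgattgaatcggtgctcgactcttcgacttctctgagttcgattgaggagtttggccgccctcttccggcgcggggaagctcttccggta
Srsf3: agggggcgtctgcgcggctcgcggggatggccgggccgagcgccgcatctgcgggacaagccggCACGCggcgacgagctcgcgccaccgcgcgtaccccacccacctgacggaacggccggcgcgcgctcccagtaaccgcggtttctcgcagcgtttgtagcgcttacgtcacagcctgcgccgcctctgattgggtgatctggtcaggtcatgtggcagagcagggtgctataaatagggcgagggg
Snrpe had no match in its window, Snrpb2 had 1 at base 114 and Srsf3 had 1 at base 65. Sf3b1, also called lower in KO on 1 probe set, is not shown and had 1 match. Across the family 42 of 68 promoters (61.8%), of 31 of the 49 genes, held the letters, against 32.4% of all 32851 promoters. The promoters of the family were also richer in G and C, with a median of 60% against 52.7% over all promoters, and GCGTG is itself rich in both. A second motif, the E-box letters CACGTG, which read the same on both strands, stood in 8 of 68 promoters (11.8%) and in 7.15% of all. These are letter matches, not binding sites.

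The first comparison asked how T cells without the receptor differ from WT cells, with treatments pooled as the series' design text does (4 KO against 4 WT arrays). Of the 54 genes, 1 rose and 1 fell at an adjusted p under 0.05: Hnrnpul2 rose and Snrpe fell. Over all 22626 probe sets 1.59% rose and 1.20% fell, so the shares of the family (1.85% each way) were near the background. Most of the other genes lay a little lower in KO: 36 of 54 differences were negative, where 51.0% of all probe sets were, and 18 positive, with a median of −0.22 log2 units against −0.005 over all probe sets. At an unadjusted p under 0.05, 14 genes (25.9%) were lower and 7 (13.0%) higher, against 11.3% lower and 9.19% higher over all probe sets. Only 12 differences were under −0.5 log2 units and 4 over 0.5, and the other 38 lay between. In 6 genes (11.1%: Snrpe, Sf3b1, Sf3a1, Prpf38b, Hnrnpu and Hnrnpk) every KO array lay below every WT array and in 5 (9.26%: Hnrnpul2, Snrpb, Sf3b4, Sf3b5 and Prpf31) above, against 6.67% and 5.67% of all probe sets. Since RNA was measured in bulk, fewer cells of a type and less RNA per cell cannot be told apart.

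**Figure D1:**
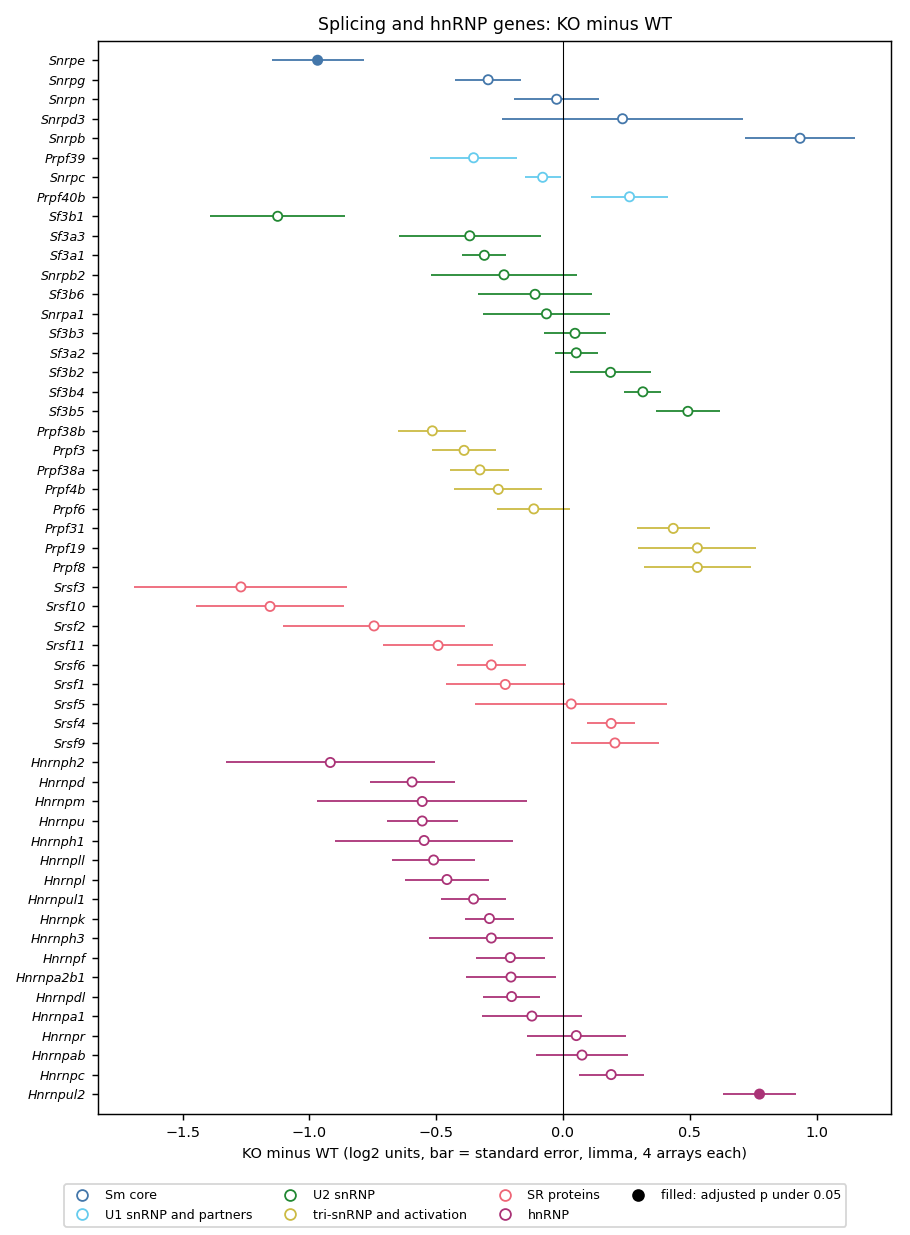
KO minus WT difference in log2 units for each of the 54 genes (points, with the limma standard error as a bar, 4 arrays per genotype), grouped by role from Sm proteins at the top to hnRNPs at the bottom; filled points passed an adjusted p of 0.05. Points left of 0 were lower in KO; filled are Snrpe at −0.97 and Hnrnpul2 at 0.78, and 36 of 54 points lie left of 0.

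The lower median leaned on a pair of WT arrays. Both WT arrays numbered 2 read above both numbered 1 in 20 of the 54 genes (37.0%), against 18.4% of all probe sets. Without them, the median difference was −0.07 log2 units (−0.03 over all probe sets), 31 genes were lower, 0 were called by limma (0.124% of all probe sets were), and at an unadjusted p under 0.05 there were 10 lower and 6 higher genes, 18.5% and 11.1% of 54, against 8.29% and 5.86% of all probe sets. The same 2 arrays had the smallest actin differences, and the part of RNA integrity in the result was not tested.

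**Figure D2:**
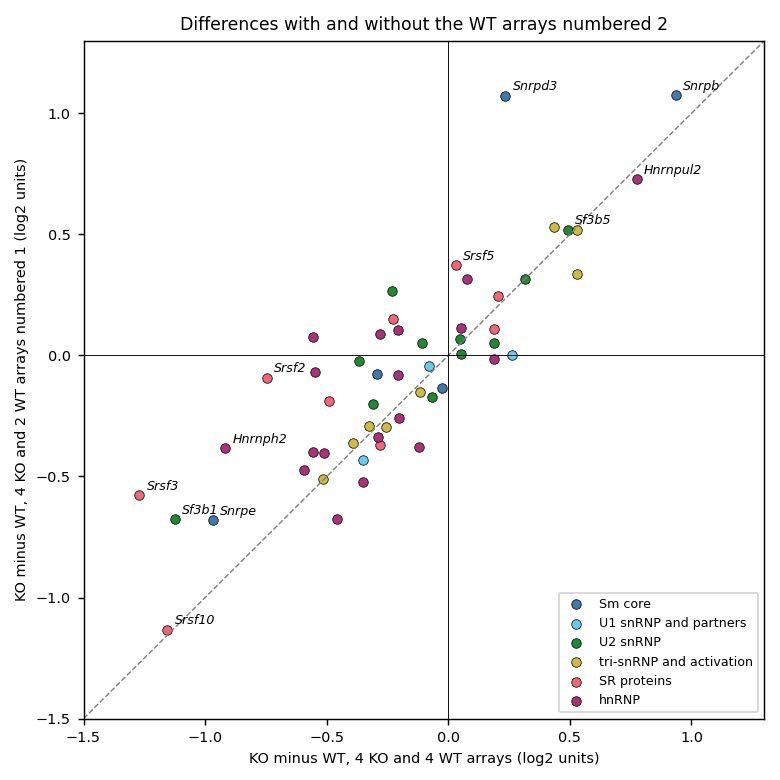
KO minus WT difference in log2 units of each of the 54 genes with all 4 WT arrays (horizontal axis) and with the 2 WT arrays numbered 1 alone (vertical axis); the dashed line marks equal values and colours mark roles. Srsf10, Hnrnpul2 and Sf3b5 lie near the line, whereas Srsf3 is at −1.27 with all arrays and −0.58 without those numbered 2, Srsf2 at −0.74 and −0.09, and Snrpd3 at 0.24 and 1.07.

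Among the 5 Sm protein genes, Snrpe fell in KO, Snrpb was the highest without being called, and the other 3 overlapped between genotypes. Snrpe (SmE, a subunit of the Sm ring) read 11.08 and 10.93 in KO TCDD and 11.20 and 10.71 in KO DMSO, against 11.70 and 12.38 in WT TCDD and 11.62 and 12.09 in WT DMSO. All 4 KO arrays lay below all 4 WT arrays. Snrpe fell by 0.97 log2 units (SE 0.18, 1.96-fold lower; adjusted p = 0.0362, limma; exact permutation p = 0.0286, the smallest the design allows). The call did not hold without KO TCDD replicate 1 (adjusted p = 0.0928), KO TCDD replicate 2 (0.112), KO DMSO replicate 2 (0.0663), WT TCDD replicate 2 (0.0725) or WT DMSO replicate 2 (0.0962), while the difference stayed at −1.08 to −0.82 whichever array was left out. Its only probe set is of a type that can match more than 1 transcript. Without both WT arrays numbered 2, Snrpe differed by −0.68 log2 units (adjusted p = 0.137).

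Snrpb, which encodes the SmB proteins of the same ring, went the other way. It read 8.71 and 8.81 in KO TCDD and 8.71 and 8.15 in KO DMSO, against 7.10 and 7.63 in WT TCDD and 7.94 and 7.97 in WT DMSO. The KO arrays all lay above the WT arrays, by 0.94 log2 units on average (SE 0.22), and the adjusted p was 0.0587 (limma), with a call in 5 alternatives (0.0176 to 0.0457). Calls in alternatives, here and below, are those gained at an adjusted p under 0.05. Most alternatives of each such gene gave no call. Snrpd3 (SmD3) read 8.88 ± 0.53 in KO against 8.64 ± 0.998 in WT (SD, n = 4 each). Its WT arrays split by number, at 7.51 and 8.10 for the first and 9.54 and 9.42 for the second, so that the difference of 0.24 log2 units (adjusted p = 0.834) was 1.07 without the second ones (adjusted p = 0.240). Snrpg (SmG) differed by −0.30 log2 units on the probe set used and by 0.39 on its other one, with neither called. Snrpn, an imprinted relative of Snrpb best known from neurons, differed by −0.025 (6.68 ± 0.35 in KO against 6.70 ± 0.14 in WT, SD, n = 4 each).

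In the U2 particle, every KO array read below every WT array for Sf3b1 on all 3 of its probe sets, 1 of which was called, and above for Sf3b4 and Sf3b5, neither called. Sf3b1 encodes the largest subunit of the SF3b complex, which holds the branch site and is the target of several splicing inhibitors. On the probe set used it read 9.65 and 9.88 in KO TCDD and 10.16 and 9.88 in KO DMSO, against 10.38 and 11.75 in WT TCDD and 10.76 and 11.18 in WT DMSO. The groups did not overlap, and WT TCDD replicate 2 stood highest. The difference was −1.13 log2 units (SE 0.27, adjusted p = 0.0618, limma), and −0.68 without both WT arrays numbered 2 (adjusted p = 0.171). Sf3b1 was called in 7 alternatives, at adjusted p = 0.0188 to 0.0470, among them the replicate block (0.0470) and leaving out WT TCDD replicate 1 (0.0384).

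The dimmest Sf3b1 probe set was the one that passed. It read 6.39 and 6.42 in KO TCDD and 6.42 and 6.48 in KO DMSO, against 6.87 and 6.75 in WT TCDD and 6.96 and 7.07 in WT DMSO, and fell by 0.49 log2 units (adjusted p = 0.0299, limma). Here the WT arrays of either number were alike, and the size was the same, −0.49, without those numbered 2 (adjusted p = 0.110). The third Sf3b1 probe set differed by −0.74 (adjusted p = 0.0596), again with no overlap between KO and WT.

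Snrpb2, the U2 RNA-binding protein whose promoter is shown above, likewise passed on a probe set other than the brightest. That probe set read 6.80 and 6.35 in KO TCDD and 6.78 and 6.41 in KO DMSO, against 7.2 and 7.58 in WT TCDD and 7.60 and 7.74 in WT DMSO, and fell by 0.94 log2 units (adjusted p = 0.0237, limma), or −0.81 without the WT arrays numbered 2 (adjusted p = 0.146). The brightest Snrpb2 probe set differed by −0.23 (adjusted p = 0.711), with overlap between the genotypes, and the dimmest by −0.01. The 3 Snrpb2 probe sets therefore gave unequal differences for 1 gene.

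Sf3b4, an RNA-binding subunit of SF3b, read 9.06 on both KO TCDD arrays and 8.95 and 9.14 on the KO DMSO arrays, against 8.71 and 8.82 in WT TCDD and 8.76 and 8.66 in WT DMSO. The groups were tight and apart, but the difference was small, 0.32 log2 units (SE 0.07, adjusted p = 0.0580, limma), with a call in 3 alternatives (0.0270 to 0.0457). Sf3b5, a small structural subunit, read 8.10 and 7.71 in KO TCDD and 7.61 and 7.62 in KO DMSO, against 7.14 and 7.17 in WT TCDD and 7.34 and 7.42 in WT DMSO, a difference of 0.49 (adjusted p = 0.0750), with a call in 2 alternatives (0.0437 and 0.0458). Both genes had a second probe set that was also higher in KO, by 0.09 for Sf3b4 and 0.20 for Sf3b5. Sf3a1, the large subunit of SF3a, gave opposite readings: −0.31 log2 units on the probe set used, with KO arrays at 7.01 to 7.05 and WT arrays at 7.23 to 7.55, and 0.36 on its other one, with KO arrays at 7.03 to 7.39 and WT arrays at 6.69 to 7.0. Neither Sf3a1 probe set was called (adjusted p = 0.0917 and 0.107, limma), although each had no overlap between genotypes. The other SF3 genes named by rule were closer together, with Sf3a3 at −0.37, Sf3a2 at 0.05 and Sf3b6, which sits at the branch-point adenosine, at −0.11 log2 units. The other U2 genes lay between −0.23 (Snrpb2, on its brightest probe set) and 0.19 (Sf3b2), and the median over the 11 U2 genes was −0.07.

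**Figure D3:**
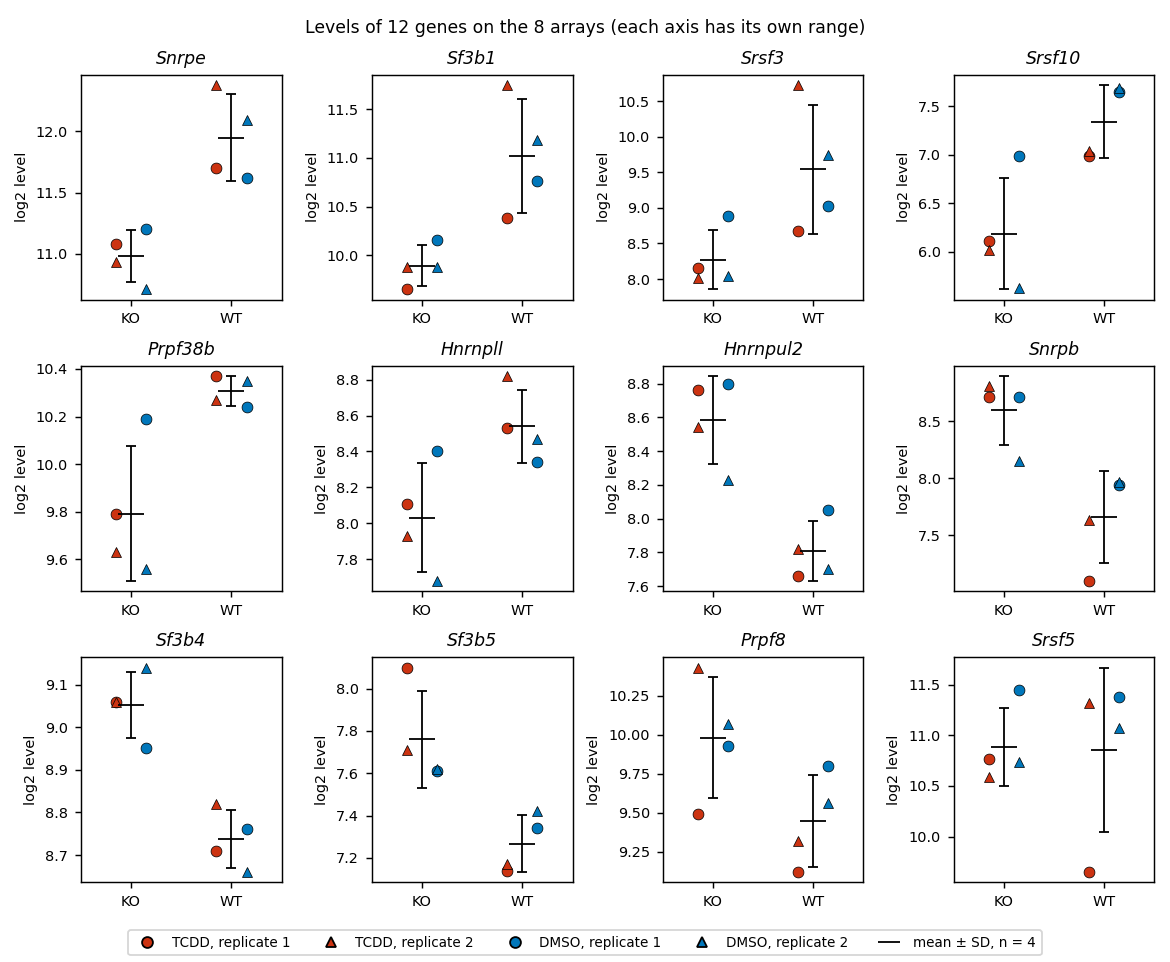
Log2 level of 12 genes on each array, KO left and WT right, with TCDD arrays in red, DMSO arrays in blue, the first replicate as circles and the second as triangles, and the mean ± SD (n = 4) in black; each panel has its own axis range. Snrpe, Sf3b1 and Prpf38b are lower and Hnrnpul2, Snrpb, Sf3b4 and Sf3b5 higher on every KO array, whereas Srsf3, Srsf10, Hnrnpll, Prpf8 and Srsf5 overlap.

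Of the 8 tri-snRNP and activation genes 0 were called, and at an unadjusted p under 0.05 there were 3 higher and 3 lower. That is 37.5% each way, against 9.19% higher and 11.3% lower over all probe sets. The higher ones were Prpf8, the scaffold of the catalytic core, Prpf19, the ubiquitin ligase of the activation complex, and Prpf31, a protein of the U4 particle. Prpf8 read 9.49 and 10.43 in KO TCDD and 9.93 and 10.07 in KO DMSO, against 9.12 and 9.32 in WT TCDD and 9.80 and 9.56 in WT DMSO. Its KO arrays ran mostly above the WT arrays, with 1 KO array inside the WT range, and the difference was 0.53 log2 units (SE 0.21, adjusted p = 0.201, limma). Prpf19 differed by 0.53 to 0.66 over its 3 probe sets, none called (adjusted p = 0.177 to 0.242). Prpf31, singled out after its values were seen, had a probe set at 0.43 with every KO array above every WT array and a dimmer one at −0.40 with every KO array below (adjusted p = 0.137 and 0.136).

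The lower ones were Prpf38b, Prpf3 and Prpf38a. Prpf38b, a relative of the activation factor Prpf38a, read 9.79 and 9.63 in KO TCDD and 10.19 and 9.56 in KO DMSO, against 10.37 and 10.27 in WT TCDD and 10.24 and 10.35 in WT DMSO. KO DMSO replicate 1 came within 0.05 log2 units of the lowest WT array, and the other KO arrays lay well below. Prpf38b differed by −0.52 log2 units (adjusted p = 0.0776, limma), and by −0.65 with a call (0.0220) without KO DMSO replicate 1. Its second probe set had the lowest difference of all 138, −1.29 (adjusted p = 0.101), at 6.89 and 6.57 in KO TCDD and 7.49 and 6.32 in KO DMSO, against 7.16 and 8.72 in WT TCDD and 7.90 and 8.65 in WT DMSO, and −0.71 without the WT arrays numbered 2. Prpf3, a protein of the U4 and U6 particles, differed by −0.39 (adjusted p = 0.132), and by −0.51 with a call (0.0437) without that array. Around the U1 particle, 0 of 3 genes passed even an unadjusted p of 0.05 on the probe sets used, with Prpf39 at −0.35, Snrpc at −0.08 and Prpf40b at 0.26 log2 units. The other Prpf39 probe sets were at −1.22 (adjusted p = 0.0981, unadjusted p under 0.05) and −0.10, the first at 5.60 to 6.70 in KO and 6.73 to 7.99 in WT. Prpf4b, a kinase of the tri-snRNP, was at −0.26 and had 5 other probe sets at −1.16 to −0.08, none called.

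Among the SR proteins, 0 of 9 genes were called by limma. At an unadjusted p under 0.05, 2 were lower (22.2%, against 11.3% of all probe sets) and 0 higher (against 9.19%). In 0 did the groups separate completely, yet Srsf3 and Srsf10 had the 2 lowest differences of all 54 genes on the probe sets used. Srsf3, the smallest SR protein, read 8.15 and 8.01 in KO TCDD and 8.89 and 8.04 in KO DMSO, against 8.68 and 10.73 in WT TCDD and 9.02 and 9.74 in WT DMSO. The WT arrays spread over more than 2 log2 units, and KO DMSO replicate 1 fell inside their range. The Srsf3 difference of −1.27 (SE 0.42) had an adjusted p of 0.136 (limma) and was −0.58 without both WT arrays numbered 2. Its 6 probe sets all pointed down, at −1.27 to −0.06.

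Srsf10, which represses splicing when dephosphorylated, read 6.11 and 6.02 in KO TCDD and 6.99 and 5.63 in KO DMSO, against 6.99 and 7.04 in WT TCDD and 7.65 and 7.69 in WT DMSO. KO DMSO replicate 1 tied with the lowest WT array. The difference of −1.16 log2 units (SE 0.29, adjusted p = 0.0737, limma) was −1.42 without that KO array, and called (0.0284), as in 3 further alternatives (0.0276 to 0.0490), and its WT arrays of either number were alike. Srsf2, known as SC35, differed by −0.74 (adjusted p = 0.287) with all 4 probe sets lower, and by −0.09 without the WT arrays numbered 2. Srsf1, the first described SR protein, differed by −0.23 on its brightest probe set and by −1.25 to −0.04 over all 6, none called. Srsf5 read 10.89 ± 0.38 in KO against 10.86 ± 0.81 in WT (SD, n = 4 each), a difference of 0.03, and its lowest value by far was WT TCDD replicate 1, at 9.65. Srsf4 and Srsf9 were at 0.19 and 0.20 log2 units (adjusted p = 0.301 and 0.568), and the other 2 SR genes, Srsf11 and Srsf6, at −0.49 and −0.28.

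Of the 18 hnRNP genes, 14 were lower in KO (77.8%, against 51.0% of all probe sets), 6 of them at an unadjusted p under 0.05 (33.3%, against 11.3%), and only Hnrnpul2 was called, as higher (5.56%, against 1.59%). Hnrnpul2, a relative of the nuclear scaffold protein hnRNP U, read 8.76 and 8.54 in KO TCDD and 8.80 and 8.23 in KO DMSO, against 7.66 and 7.82 in WT TCDD and 8.05 and 7.70 in WT DMSO. Every KO array lay above every WT array. Hnrnpul2 rose by 0.78 log2 units (SE 0.14, 1.71-fold higher; adjusted p = 0.0353, limma; exact permutation p = 0.0286). The call did not hold without KO TCDD replicate 1 (0.103), KO TCDD replicate 2 (0.104), KO DMSO replicate 1 (0.0561), WT TCDD replicate 1 (0.0520), WT TCDD replicate 2 (0.0859) or WT DMSO replicate 2 (0.0944), while the difference stayed at 0.70 to 0.89 whichever array was left out. Its second probe set read the other way, at 7.86 and 7.85 in KO TCDD and 8.07 and 7.71 in KO DMSO, against 8.18 and 8.80 in WT TCDD and 8.06 and 8.77 in WT DMSO, a difference of −0.58 (adjusted p = 0.122), so the direction for the gene depends on the probe set. The mean of both probe sets differed by 0.098 log2 units and was not called (adjusted p = 0.708, limma).

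Hnrnpd, also called AUF1, binds AU-rich elements and read 8.95 and 8.90 in KO TCDD and 9.43 and 8.95 in KO DMSO, against 9.33 and 9.55 in WT TCDD and 9.73 and 10.00 in WT DMSO, a difference of −0.60 log2 units (adjusted p = 0.0937, limma), with a call in 2 alternatives (0.0334 and 0.0352). Its KO and WT arrays overlapped only through KO DMSO replicate 1 and WT TCDD replicate 1. Hnrnpu, the scaffold protein itself, singled out after its values were seen, had no overlap: 10.70 to 11.14 in KO and 11.21 to 11.79 in WT, a difference of −0.55 (adjusted p = 0.0724), with all 5 of its probe sets lower. Hnrnpk, a poly-C-binding hnRNP, had none either, at 11.34 to 11.66 in KO and 11.71 to 11.94 in WT, but a difference of only −0.29 (adjusted p = 0.139). Hnrnpdl, a close relative of Hnrnpd, differed by −0.20 on the probe set used (12.67 ± 0.21 in KO against 12.88 ± 0.08 in WT, SD, n = 4 each), and all 6 of its probe sets were lower, down to −0.78 with none called. Hnrnph2, a G-run-binding protein, differed by −0.92 (SE 0.41, adjusted p = 0.254), with WT DMSO replicate 2 highest at 10.06. Hnrnpa1 and Hnrnpc, the classical core hnRNPs, differed by −0.12 and 0.19 (adjusted p = 0.787 and 0.456). The remaining hnRNP genes except Hnrnpll ran from −0.55 (Hnrnpm) to 0.07 (Hnrnpab), none called, and Hnrnpl, which silences the same CD45 exons as Hnrnpll, was at −0.46 (adjusted p = 0.166).

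Hnrnpll, the CD45 exon silencer, read 8.11 and 7.93 in KO TCDD and 8.40 and 7.68 in KO DMSO, against 8.53 and 8.82 in WT TCDD and 8.34 and 8.47 in WT DMSO. KO DMSO replicate 1 lay above the lowest WT array, and the difference was −0.51 log2 units (SE 0.16, adjusted p = 0.127, limma). Its second probe set separated the genotypes, at 6.2 and 6.55 in KO TCDD and 6.90 and 6.07 in KO DMSO, against 7.53 and 7.0 in WT TCDD and 7.2 and 7.68 in WT DMSO, a difference of −0.92 (adjusted p = 0.0559) and −0.93 without the WT arrays numbered 2. The mean of both probe sets differed by −0.72 and was called (0.0385). Ptprc, the gene whose exons it silences, read 11.55 and 12.01 in KO TCDD and 12.40 on both KO DMSO arrays, against 12.18 and 12.98 in WT TCDD and 12.41 and 12.81 in WT DMSO, a difference of −0.51 (adjusted p = 0.269). Its single probe set does not tell exon usage.

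Probe sets of 1 gene often disagreed. Of the 36 genes with several, 18 had all of them lower in KO, 4 had all higher and 14 had both directions, and in 3 (Hnrnpul2, Prpf31 and Sf3a1) a probe set lay each way at an unadjusted p under 0.05. The range of differences between the probe sets of a gene had a median of 0.62 log2 units and reached 1.36 in Hnrnpul2. Of the 84 probe sets not used, 68 were lower in KO (81.0%, against 51.0% of all probe sets). By limma 0 were called higher (against 1.59%) and 2 lower (2.38%, against 1.20%), those of Sf3b1 and Snrpb2 above. The unadjusted p was under 0.05 for 29 lower ones (34.5%, against 11.3%) and 5 higher ones (5.95%, against 9.19%).

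**Figure D4:**
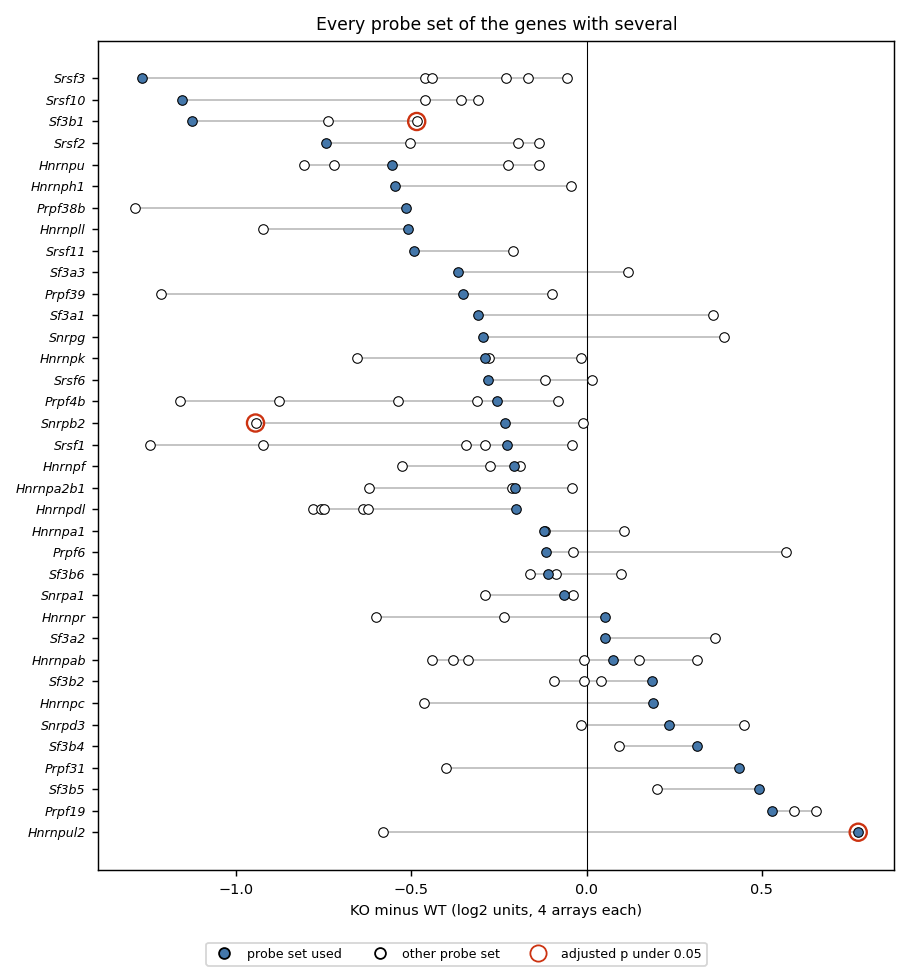
KO minus WT difference in log2 units for every probe set of the 36 genes with several (filled, the probe set used; open, the others; a red ring, adjusted p under 0.05; grey lines join the probe sets of a gene), ordered by the probe set used. Hnrnpul2 at the foot spans −0.58 to 0.78, and the ringed open points are Sf3b1 at −0.49 and Snrpb2 at −0.94.

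On single arrays many of the 54 genes were high or low together. KO DMSO replicate 1 was the highest KO array in 39 of them (72.2%), against 22.5% of all probe sets, and KO DMSO replicate 2 the lowest KO array in 28 (51.9%, against 40.1%). On the WT side, WT TCDD replicate 1 was lowest in 27 genes (50%, against 21.9%). As a median deviation from each probe set's own mean, the KO arrays stood at −0.13 and −0.17 (TCDD) and 0.18 and −0.28 (DMSO), and the WT arrays at −0.07 and 0.14 (TCDD) and 0.09 and 0.20 (DMSO). KO DMSO replicate 1 thus read within the range of the WT arrays, and the median difference between KO and WT was −0.30 without it, with 4 genes called lower and 0 higher. The share of all probe sets called without this array was not counted, so these calls cannot be set against the background. The myeloid list mean (7.37) and actin difference (3.48, where KO arrays reached 3.82) of KO DMSO replicate 1 were the lowest of the KO arrays. Its difference between 3′ and 5′ Gapdh controls (4.86) was above that of KO DMSO replicate 2 (4.77). WT TCDD replicate 1 had the largest actin (4.56) and Gapdh (5.34) differences of all arrays. The part of these measures in the result was not tested.

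**Figure D5:**
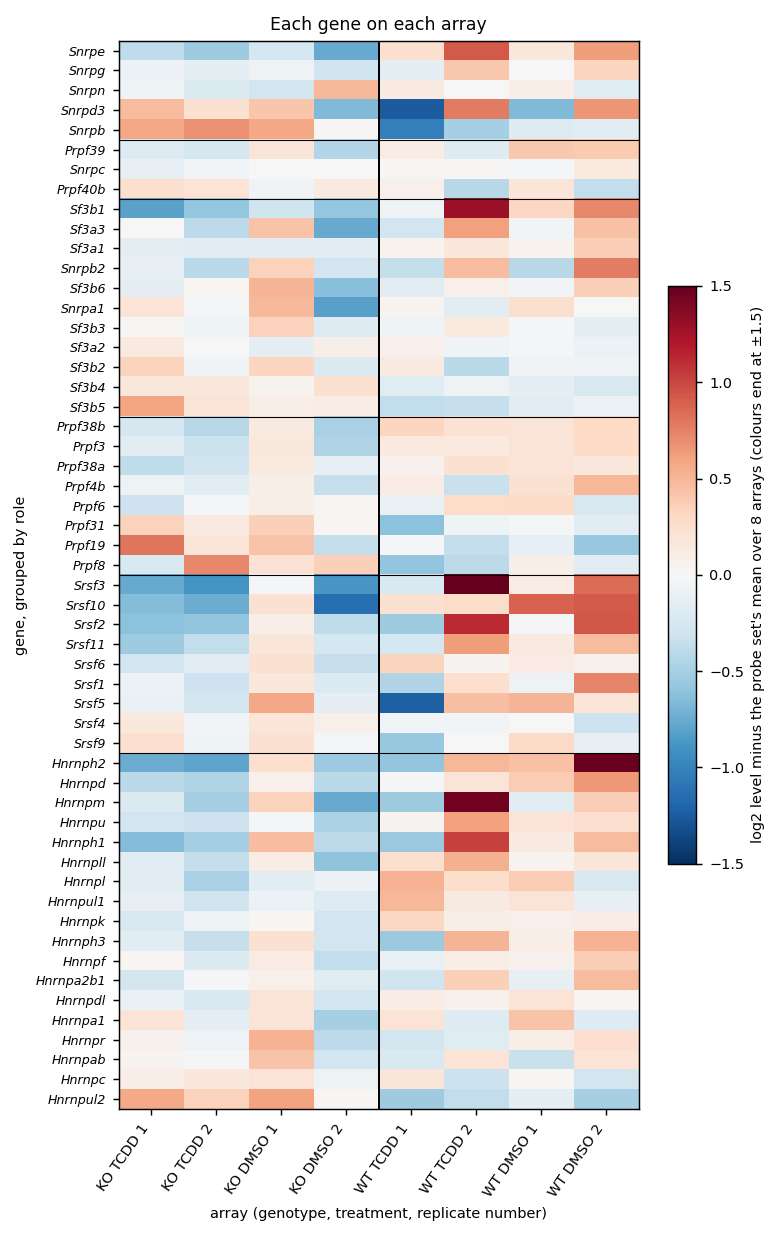
Log2 level of each of the 54 genes on each array minus the probe set's mean over all arrays (red above, blue below, colours ending at 1.5 log2 units either way), KO arrays left and WT arrays right, genes grouped by role. The KO DMSO 1 column is redder than the other KO columns (highest of them in 39 genes), and the WT TCDD 1 column holds the darkest blue cells among the WT arrays.

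The genotype difference had the same sign under TCDD and under DMSO in most of the genes. Within TCDD arrays the median was −0.20 log2 units (0 called by limma) and within DMSO arrays −0.21 (0 called), where 0.0575% and 0% of all probe sets were called. At an unadjusted p under 0.05 there were 17 genes (31.5%) within TCDD, against 11.1% of all probe sets, and 6 genes (11.1%) within DMSO, against 10.5%. The sign was the same under both in 46 of 54 genes (85.2%), 32 lower and 14 higher, against 63.2% of all probe sets. Snrpe differed by −1.03 within TCDD and −0.90 within DMSO, Hnrnpul2 by 0.91 and 0.64, and Srsf10 by −0.95 and −1.36. The largest contrast between the treatments was Snrpb, at 1.39 within TCDD (adjusted p = 0.102) and 0.48 within DMSO (adjusted p = 0.515).

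The second comparison asked what TCDD did within each genotype over 24 h, and no gene of the family was called in either (0 of 54 by limma in KO, 0 in WT and 0 for the difference between genotypes). Of all 22626 probe sets 0 were called in these comparisons too, so the lack of calls is not particular to the family. At an unadjusted p under 0.05 there was 1 gene in KO, against 1.69% of all probe sets, 1 in WT, against 2.79%, and 2 for the difference between genotypes, against 2.78%. TCDD minus DMSO had a median of −0.07 log2 units in KO (range −0.63 to 0.47) and −0.08 in WT (range −1.01 to 0.36). The KO median turned to 0.13 on leaving out KO DMSO replicate 1, against −0.26 on leaving out the other DMSO array, so its sign rests on which of them is kept. The WT median was −0.23 with the first TCDD array alone and −0.0025 with the second alone.

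The smallest unadjusted p-values, none of which passed the adjustment, were those of Prpf38a, Sf3b5 and Snrpb in KO and Snrpb, Prpf4b and Hnrnpd in WT. In KO, Prpf38a differed by −0.34 log2 units (7.28 and 7.36 in TCDD against 7.80 and 7.53 in DMSO), Sf3b5 by 0.29 and Snrpb by 0.33. In WT, Snrpb differed by −0.59 (7.10 and 7.63 in TCDD against 7.94 and 7.97 in DMSO), Prpf4b by −0.47 and Hnrnpd by −0.42. For the difference between genotypes the smallest were Snrpb at 0.92, Sf3b5 at 0.52 and Prpf38a at −0.32, each with an adjusted p of 0.998 (limma).

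Other splicing genes gave a like count. Of 111 further listed splicing factor genes, 91 were measured, 2 fell (2.20%) and 0 rose, against the 1.20% and 1.59% of all probe sets. Sugp1, a partner of Sf3b1 in branch-site use, fell by 0.56 log2 units, at 8.59 and 8.61 in KO TCDD and 8.68 and 8.69 in KO DMSO, against 9.08 and 9.39 in WT TCDD and 9.17 and 9.15 in WT DMSO (adjusted p = 0.0200, limma). Ddx39b, the helicase UAP56 that loads the U2 particle, fell by 0.44 (10.38 ± 0.10 in KO against 10.82 ± 0.11 in WT, SD, n = 4 each; adjusted p = 0.0381). A second probe set of Slu7 fell by 0.89 (adjusted p = 0.0449) and one of Rbm25 by 0.82 (adjusted p = 0.0116), both with every KO array below every WT array. Both are named because they were called. The brightest probe sets of these genes were not called and overlapped between genotypes, at −0.145 for Slu7 (adjusted p = 0.632, limma) and −0.81 for Rbm25 (adjusted p = 0.186). In all 66 of the 91 genes were lower in KO (72.5%, against 51.0% of all probe sets) and 25 higher. The unadjusted p was under 0.05 for 29 lower ones (31.9%, against 11.3%) and 5 higher ones (5.49%, against 9.19%). Their median was −0.18 log2 units, and −0.19 without the WT arrays numbered 2, where the median of the 54 was −0.07.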

How the data were processed

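The deposited log2 values were made by the authors; RMA and affy are the tools listed, without versions, per the submitters' processing notes. They come from RNA isolated with TRIzol and amplified with the Ambion MessageAmp kit, per the labels' protocols. RMA normalises the arrays to each other, so only relative differences are measured. The table has 22690 probe sets, and 22626 remained for testing once 64 Affymetrix controls were removed. KO was compared with WT (4 against 4 arrays) with limma 3.58.1 in R 4.3.3 (lmFit, eBayes), and treatments and the interaction in a model of 4 group means, with Benjamini-Hochberg adjustment over all 22626 probe sets and calls at an adjusted p under 0.05. For single genes an exact permutation test (two-sided, 70 arrangements of the arrays) was run beside it, which cannot go below 0.0286. The fits were tested on simulated data. The number of arrays limits the precision, since there is no depth of reading. At most 2.85% of values were identical between 2 arrays.

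Probe sets were named from GEO's platform annotation, and all 54 symbols matched RefSeq. The genes named with values were every called one, the 2 highest, 2 lowest and brightest of each of 6 symbol families, and a short list of well-known splicing genes. The genes and the lists were chosen with earlier results of these data known. Replicate numbers were not taken to pair the arrays, since the deviations of same-numbered arrays did not correlate in every pair of groups: r was 0.154 between KO and WT under TCDD, −0.293 between them under DMSO, 0.117 between KO TCDD and KO DMSO, and 0.626 between WT TCDD and WT DMSO, so within WT the numbers went with a shared deviation.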

Additional observations from a re-analysis of the deposited data

Results flagged for a closer look

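Among 62 groups of 4 arrays of 1 genotype examined for 1 array far from the other 3 (the named genes), 5 had one, and chance gives about 1 in 20. Srsf3 had KO DMSO replicate 1 at 8.89 with the other KO arrays at 8.01 to 8.15, and Hnrnpd had the same array at 9.43 with the others at 8.90 to 8.95. Snrpb had KO DMSO replicate 2 at 8.15 with the others at 8.71 to 8.81. On the WT side, Srsf4 had WT DMSO replicate 2 at 8.75 with the others at 9.02 to 9.07, and Hnrnpk had the WT TCDD array labelled in part as knockout, replicate 1, at 11.94 with the others at 11.71 to 11.74.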

How the results depend on the processing

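Counts of called genes were small and moved with the setting. In order of genes higher in KO, genes lower in KO and other splicing genes called, they were 1, 1 and 2 as reported, 3, 3 and 7 after another quantile normalization, 2, 3 and 7 when dim probe sets were dropped, 4, 6 and 12 with array weights, 3, 8 and 20 with the actin difference as a covariate, and 4, 7 and 16 at an adjusted p under 0.10. For these alternatives, and with 1 array left out, the share of all probe sets called was not counted. Nor was it counted for the replicate block, median centring, trend and robust settings or the mean of a gene's probe sets, given below. A higher count in the family there cannot be told from a rise over the whole array. All 3 counts were 0 by limma without both WT arrays numbered 2, in the model of 4 group means, within DMSO arrays and within TCDD arrays. With the replicate block 2 genes were lower, Sf3b1 (adjusted p = 0.0470) beside Snrpe, and 5 other splicing genes were called. Median centring gave 2 higher genes, and trend and robust settings 1 other splicing gene. The mean of a gene's probe sets gave 3 lower genes. With that mean Snrpb was called higher (adjusted p = 0.0457, limma) and Hnrnpul2 was not called (0.098 log2 units, adjusted p = 0.708). Leaving out probe sets of the s and x types gave 0 lower genes and 1 other splicing gene. This removed the only probe set of Snrpe and the called one of Ddx39b, so it could not test those calls. The replicate block changed no other count; crossing the numbers, chosen after seeing the data, gave 0 calls within DMSO. Leaving out 1 array at a time gave 0 to 1 higher, 0 to 4 lower and 0 to 6 other splicing genes, a KO minus WT median of −0.30 to −0.14, and TCDD medians of −0.26 to 0.13 in KO and −0.23 to −0.0025 in WT. Of 681 alternatives of 31 single genes, 601 kept direction and side of the threshold, 36 gained a call, 20 lost it and 24 turned direction. Unlike the calls in alternatives given above for single genes, the 36 include those gained only by raising the threshold to 0.10, with unchanged differences. Turned were Snrpn (0.0091 after quantile normalization, 0.16 within DMSO, −0.20 to 0.061 without 1 array), Srsf5 (−0.23 with array weights, −0.13 within DMSO, −0.37 to 0.21 without 1 array), Sf3b6 (0.019 with array weights, 0.05 without both WT arrays numbered 2, 0.08 without KO DMSO replicate 2), Srsf1 (0.15 without both WT arrays), Hnrnpc (−0.015 without both WT arrays, −0.14 with the mean of probe sets), Snrpd3 (−0.12 within DMSO, −0.14 to 0.53 without 1 array), Hnrnpa1 (0.025 within TCDD, −0.21 to 0.023 without 1 array), Snrpg (0.049 with the mean of probe sets, 0.39 without s and x types) and Sf3a1 (0.025 with the mean of probe sets). The cause was not tested.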
